A study of Arabidopsis thaliana with 8 samples.

Results

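Translation initiation factors bring the small ribosomal subunit, the initiator tRNA and the messenger RNA together and release the large subunit to join them at the start codon. In these whole Arabidopsis seedlings the transcripts of most of them were abundant and moved by small amounts when ABCE2 (RLI2), which encodes an ATPase that separates the ribosomal subunits once a protein is finished, was silenced by RNA interference (RNAi). Among the members that passed the test in both RNAi lines were the cap-binding proteins NCBP, which rose, and EIF4E1, which fell, the eIF6 gene EIF6-2 and an eIF5B gene, which rose, and an eIF4B, an eIF1A and an eIF4A gene, which fell. Several low-level genes also rose in both lines, AT2G18720, EIF6-1 and AT4G30680 among them. AT2G18720 and EIF6-1 were high enough to be tested only through RNAi libraries, which favoured a rise. The line 5 calls of AT2G18720, EIF6-1, AT4G30680 and EIF6-2 were each lost in some alternative fits. The set comprised the 62 genes on chromosomes 1 to 5, of 32833 genes in the deposited table, whose best protein match is described as a eukaryotic initiation factor. They fell into 14 factors, with 20 genes on chromosome 1, 9 on chromosome 2, 11 on chromosome 3, 7 on chromosome 4 and 15 on chromosome 5. The description comes from sequence similarity, so several are homologues whose own function is not established by it. AT4G30680, for example, is matched to isoform 4G-2 but also described as an MA3 domain protein.

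The 8 RNA-seq libraries came from 3 wild-type (WT, Col-0) samples, 2 samples of RNAi line 5 and 3 of RNAi line 12. All seedlings were held for 3 days at 4 °C and then grown for 7 days at 22 °C on diluted Murashige and Skoog medium, under days of 16 h light and 8 h dark. The labels give each line as 1 number, with no promoter for the RNAi construct and no statement that replicates were separate cultures, so the p-values rest on library-to-library variation that could be technical. Levels are FPKM (fragments scaled by gene length and by depth), and differences are on the log2(FPKM + 1) scale, which understates the change of low genes. The values implied 42270000 to 49000000 fragments per library. ABCE2 itself was at 57.5, 57.8 and 58.6 FPKM in WT, at 25.0 and 26.4 in line 5 and at 26.7, 26.4 and 23.3 in line 12, so its level was lower in every library labelled RNAi.

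The libraries also differed in ways other than ABCE2. Ribosomal RNA genes held 0.4122%, 0.4012% and 0.1925% of fragments in WT, 0.4679% and 2.175% in line 5, and 0.1609%, 2.338% and 7.602% in line 12. Root markers (5 genes) summed to 1407 to 1793 FPKM in WT and 543.9 to 1007 in the RNAi libraries, nearly all of it from BGLU23 (1390 to 1768 FPKM in WT). Of the 5, 3 fell and 0 rose in line 5, and 2 fell and 1 rose in line 12 (limma adjusted p under 0.05), the riser being MYB36, at 1.26 to 2.08 FPKM in WT and 2.92 to 3.96 in line 12. Shoot markers (4 genes) summed to 18160 to 18980 in WT, 17310 and 18110 in line 5 and 13250 to 14130 in line 12. The dry seed storage markers summed to 28.76 FPKM in WT replicate 1 and to at most 3.383 elsewhere. The part of these differences in the results below was not tested, and in whole seedlings fewer cells of a type and less RNA per cell cannot be told apart.

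Initiation in plants starts with the ternary complex of eIF2, GTP and initiator tRNA, which binds the small subunit together with eIF1A, eIF3 and eIF5. The messenger RNA is brought in by eIF4E, which binds the cap, eIF4G, a scaffold, and the helicase eIF4A with its helper eIF4B, and plants have a second cap-binding complex made of isoform 4E and isoform 4G. eIF5B then joins the subunits, and eIF6 holds free large subunits apart from small ones. In yeast, the ABCE protein Rli1 binds eIF2, eIF3 and eIF5.

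The promoters of 4 genes are shown because the genes differ in response and in the motifs that promoters of plant translation genes often carry. Each run is the 250 bases before the annotated gene start, 5′ to 3′ on the gene's own strand, from the RefSeq genome TAIR10.1, and no other annotated gene lies in it. Capitals mark telo boxes (AAACCCTA) and site II elements (TGGGCC or TGGGCT) found on either strand. EIF4E1 (chr4:10018233-10018482, minus strand) fell in both lines, AT4G30680 (chr4:14960322-14960571, minus strand) and EIF6-2 (chr3:20633807-20634056, plus strand) rose in both, and TIF3H1 (chr1:3610617-3610866, minus strand) passed the test in neither.
EIF4E1: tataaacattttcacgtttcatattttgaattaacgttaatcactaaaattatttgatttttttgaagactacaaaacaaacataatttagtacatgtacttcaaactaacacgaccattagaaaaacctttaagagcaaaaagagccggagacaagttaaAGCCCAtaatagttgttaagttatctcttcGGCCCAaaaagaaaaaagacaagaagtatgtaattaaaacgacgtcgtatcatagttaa
AT4G30680: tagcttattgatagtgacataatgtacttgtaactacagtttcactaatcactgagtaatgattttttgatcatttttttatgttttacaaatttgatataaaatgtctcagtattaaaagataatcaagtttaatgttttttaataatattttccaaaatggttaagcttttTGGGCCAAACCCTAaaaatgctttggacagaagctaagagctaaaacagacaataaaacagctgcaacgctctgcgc
EIF6-2: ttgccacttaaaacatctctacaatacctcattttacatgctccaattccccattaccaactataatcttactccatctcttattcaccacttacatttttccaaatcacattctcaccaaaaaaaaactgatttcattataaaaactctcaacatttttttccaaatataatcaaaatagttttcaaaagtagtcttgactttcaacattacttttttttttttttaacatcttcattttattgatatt
TIF3H1: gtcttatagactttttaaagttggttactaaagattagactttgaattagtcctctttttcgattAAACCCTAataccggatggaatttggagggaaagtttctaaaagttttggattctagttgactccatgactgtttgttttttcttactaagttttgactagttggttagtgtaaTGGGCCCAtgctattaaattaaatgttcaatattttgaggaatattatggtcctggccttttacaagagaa

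EIF4E1 held 2 site II elements on the opposite strand, AT4G30680 a site II element that runs directly into a telo box, and TIF3H1 a telo box and a palindromic site II pair, while none of these letters occurred in the EIF6-2 window. Among the 61 protein-coding members, 23 promoters (37.7%) held a site II element and 5 (8.2%) a telo box, against 19.2% and 4.48% of the promoters of all 27407 protein-coding genes. Over the genes tested for expression the shares were 40% and 7.27% of 55 members, against 22.7% and 3.57% of all 18595. Split by the response in line 12, a site II element was found in 10 of the 22 members that rose, 2 of the 7 that fell and 11 of the 27 that passed in neither direction. These matches are descriptions of the sequence and were not tested against the response.

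In WT the initiation factor genes covered a wide range of levels. Of the 62, 56 reached 1 FPKM in at least 2 libraries and were tested, and their WT levels ran from 0.0993 to 726 FPKM. The median was 34.3 FPKM, against 9.67 for all 19395 tested genes, and 42 of the 56 lay above the latter. The most abundant was ELF5A-2, which encodes an eIF5A, now known mainly for helping elongation past difficult peptide bonds, and its WT level exceeded 99.6% of tested genes. The 6 members that were not tested were AT3G07920, AT4G18330, AT1G49015, TIF3C2, AT1G62410 and AT2G27700, and AT1G49015 was listed at 0 in every library.

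Against WT, 18 of the 56 tested members passed the test in line 5 (limma, Benjamini-Hochberg adjusted p under 0.05), 12 higher and 6 lower, or 32.1% where 44.6% of all tested genes passed. By direction, 21.4% of members were higher and 10.7% lower, beside 22.2% and 22.3% of all tested genes. In line 12, 29 passed (51.8%, against 56.0% of all genes), 22 of them higher and 7 lower, where 28.3% and 27.7% of all genes passed in those directions. For the mean of both lines, 28 passed against a background of 56.1%, 20 of them higher and 8 lower, where 28.1% of all genes passed in each direction. The median absolute log2 difference was 0.155 for members and 0.275 for all genes in line 5, and 0.237 and 0.317 in line 12. Median centring of the libraries changed the split in line 5 to 7 higher and 9 lower (3774 and 4959 of all tested genes). The balance of directions there thus depends on the scaling. Without line 5 replicate 1, 1 library was left in line 5, and without the 3 libraries above 2% ribosomal RNA, 1 in each line. Fewer members and fewer genes overall passed in line 5 and line 12 in these fits. The median absolute log2 difference of members was then 0.177 in line 5 (0.268 over all genes) and 0.211 in line 12 (0.315).

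Both lines were compared with the same WT libraries, so the lines are given side by side. In both, 10 members passed as higher (17.6% of all tested genes did) and 4 as lower (17.7%), and 0 passed in opposite directions. A further 4 passed in line 5 and not in line 12 (8.44% of all tested genes did), 15 in line 12 and not in line 5 (19.8%), and 23 in neither. Of all 19395 tested genes, 8645 passed in line 5 and a further 3848 in line 12 alone. Of the 8645, 1637 did not pass in line 12, 3419 were higher in both and 3439 lower in both. Calls in opposite directions were thus few over all genes too. All 5 RNAi libraries lay above all 3 WT libraries for 16 members (24.1% of all genes) and below them for 8 (24.7%). A log2 difference of at least 1 was reached by 3 called members in line 12 (AT2G18720, EIF6-1 and EIF6-2) and by 0 in line 5. With 0.1 as the pseudocount, 2 called members reached it in line 5. How many of all tested genes reached that size was not counted, so these counts have no background beside them. AT2G18720 and EIF6-1 passed the filter on low values only through RNAi libraries, so the filter favoured the difference counted here.

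**Figure D1:**
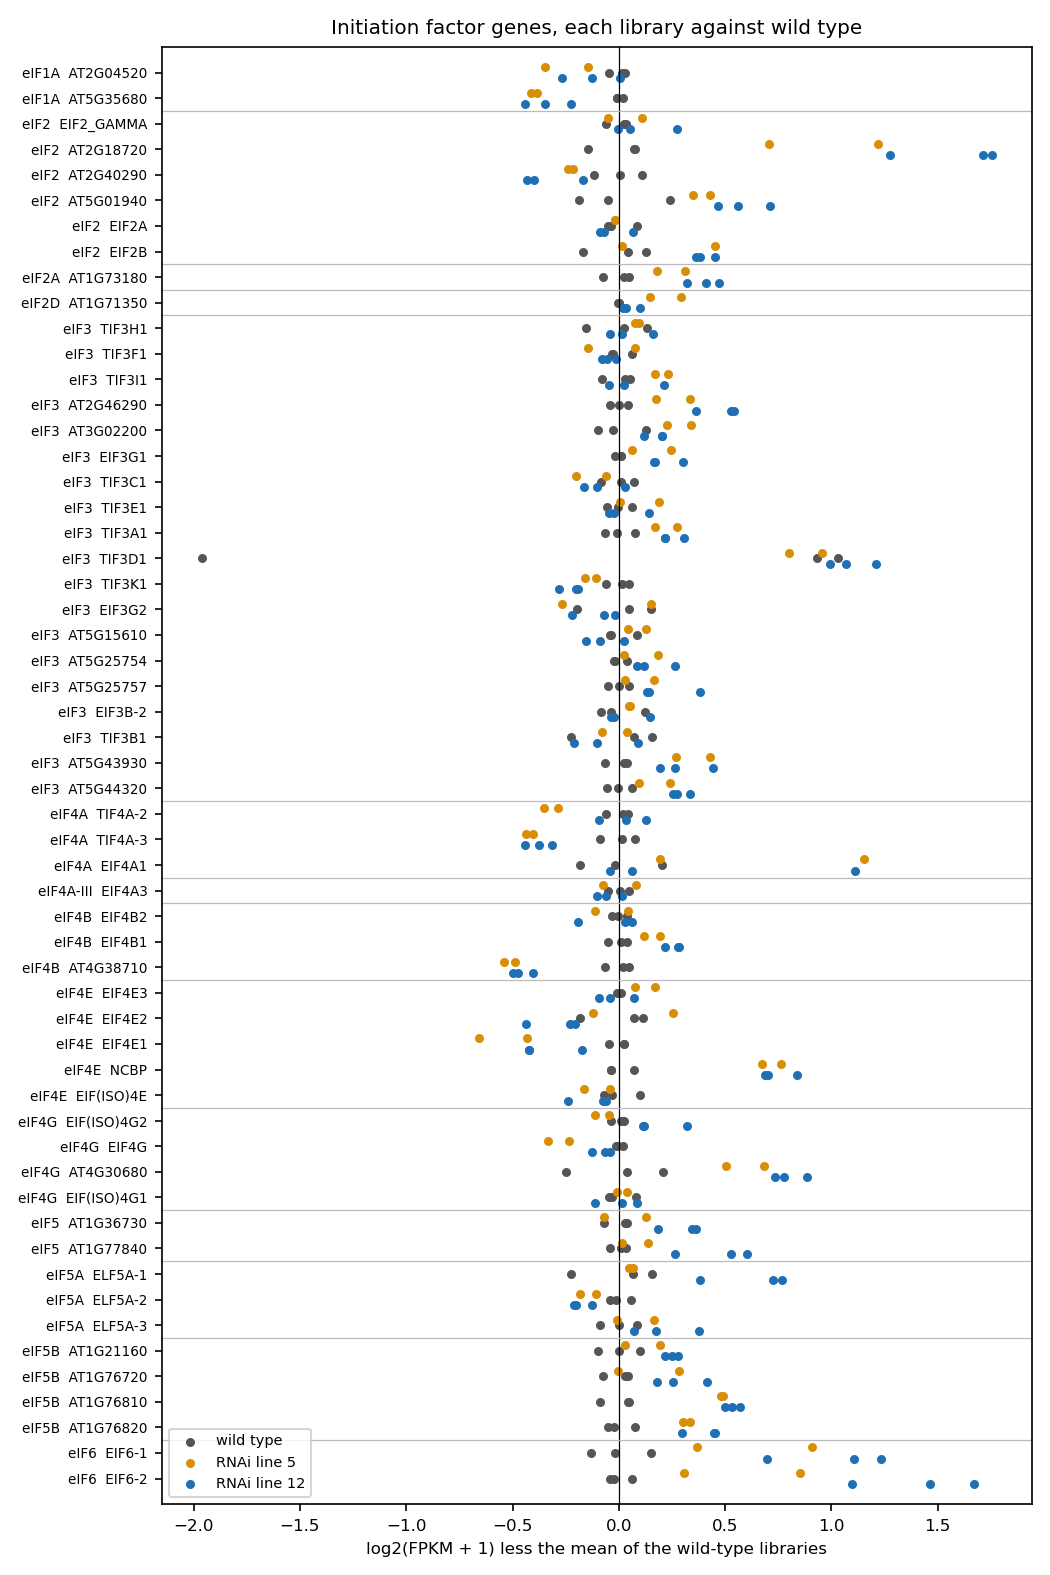
Difference of each library from the WT mean, in log2(FPKM + 1), for the 56 tested initiation factor genes in order of factor; 1 point per library. Most points lie close to 0, the eIF6 genes and AT2G18720 lie to the right in line 12, and WT replicate 3 lies far to the left for TIF3D1.

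Among the cap-binding proteins, NCBP rose and EIF4E1 fell in both lines, so the make-up of the family shifted while its sum moved less. NCBP, a cap-binding protein that stands apart from the canonical eIF4E in sequence, was at 33.6, 33.5 and 36.3 FPKM in WT, at 59.0 and 55.4 in line 5 and at 56.1, 62.4 and 56.5 in line 12. All RNAi libraries lay well above all WT libraries. The log2 difference in line 5 was 0.72 ± 0.07 (SE here and below, limma adjusted p = 0.00015), and that in line 12 was 0.74 ± 0.06 (limma adjusted p = 4.8e-05). NCBP shares 142 bases with the opposite-strand gene CSD3, which was at 42.4 to 49.9 FPKM throughout, and no source used here states whether reads were counted by strand.

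EIF4E1, the main canonical cap-binding protein, was at 51.3, 51.2 and 48.8 FPKM in WT, at 37.1 and 31.6 in line 5 and at 37.4, 44.6 and 37.4 in line 12. All RNAi libraries were below all WT libraries. The log2 difference was -0.55 ± 0.10 (limma adjusted p = 0.0031) in line 5 and -0.34 ± 0.09 (limma adjusted p = 0.012) in line 12. EIF(ISO)4E, the cap-binding subunit of the plant isoform complex, stood at means of 35.9, 33.3 and 32.9 FPKM in WT, line 5 and line 12 and passed in neither line, and neither did EIF4E2 or EIF4E3. The latter pair are 92.6% identical over their aligned transcript, so reads may be shared between them.

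Summed over the 5 genes, the family stood at 133 ± 1.99 FPKM in WT (SD, n = 3), 138 ± 8.14 in line 5 (n = 2) and 142 ± 9.60 in line 12 (n = 3). Within that sum, the share of EIF4E1 was 38.0 ± 1.62% in WT, 24.8 ± 1.38% in line 5 and 28.0 ± 1.15% in line 12. The share of NCBP was 25.9 ± 0.807% in WT, 41.5 ± 0.580% in line 5 and 41.1 ± 0.594% in line 12. EIF4E1 was thus the most abundant family member in each WT library and NCBP in each RNAi library.

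**Figure D2:**
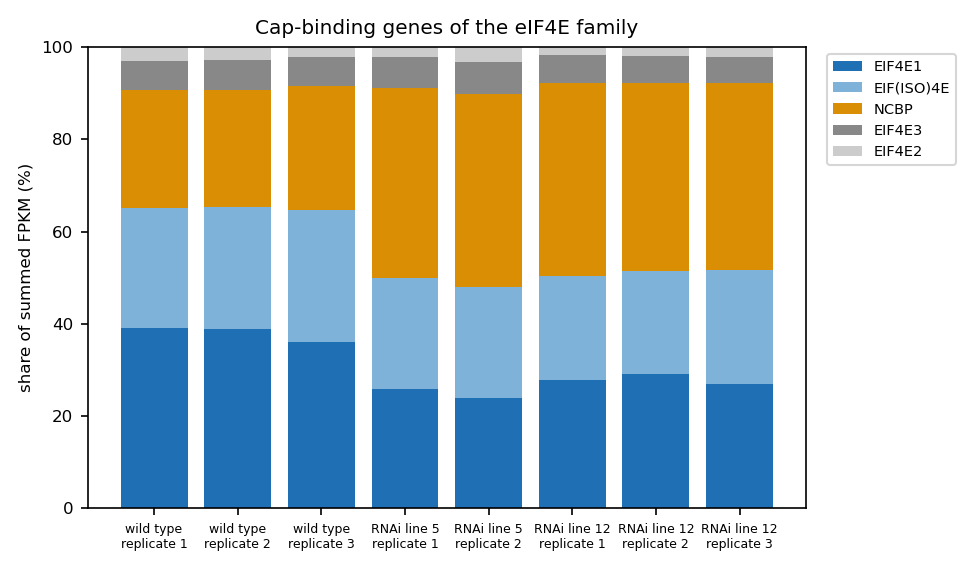
Share of each eIF4E family gene in the summed FPKM of the family, in percent, with 1 bar per library. NCBP holds 25.4% to 26.9% in WT and 40.7% to 41.9% in the RNAi libraries, and EIF4E1 36.2% to 39.1% and 23.9% to 29.2%.

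Among the eIF4G genes, the low-level AT4G30680 rose in both lines, EIF4G fell in line 5 and the most abundant one passed in neither. EIF(ISO)4G1, the most abundant of them, stood at 64.5, 65.1 and 70.4 FPKM in WT, 68.4 and 66.1 in line 5 and 61.4, 70.7 and 67.2 in line 12, with log2 differences of 0.01 (95% interval -0.15 to 0.18) and -0.00 (-0.16 to 0.15). EIF4G was at 33.8, 34.7 and 34.0 in WT, 28.9 and 27.0 in line 5 and 31.2, 33.1 and 32.6 in line 12. It fell in line 5 (-0.28 ± 0.06, limma adjusted p = 0.0048), a call that was lost without the libraries above 2% ribosomal RNA (limma adjusted p = 0.0593), while the line 12 difference of -0.08 did not pass. AT4G30680, which resembles isoform 4G-2, was at 5.27, 4.14 and 6.04 in WT, 8.79 and 7.66 in line 5 and 9.43, 9.16 and 10.2 in line 12. It rose by 0.59 ± 0.13 (limma adjusted p = 0.0087) and 0.80 ± 0.12 (limma adjusted p = 0.00088), and the line 5 call was lost without line 5 replicate 1 (limma adjusted p = 0.0712) or the libraries above 2% ribosomal RNA (0.0508). A snoRNA gene shares 132 bases with it and stood at no more than 0.680 FPKM. AT1G62410, also of this group, was listed at 0 in WT and line 5 and at 0.187, 0.309 and 0.205 FPKM in line 12, which is 6, 9 and 6 implied fragments.

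The helicase genes did not move together. EIF4A1 was at 89.4, 79.7 and 105 FPKM in WT, 104 and 203 in line 5 and 94.7, 88.2 and 197 in line 12, so 1 library of each line stood at about the level of the other and apart from the remaining 6. Those libraries, line 5 replicate 2 and line 12 replicate 3, also had 2.175% and 7.602% of fragments from ribosomal RNA genes, but line 12 replicate 2 with 2.338% did not share the high EIF4A1. The eEF1A gene AT1G07940 was high in the same pair of libraries, at 131 FPKM in each against 44.6 to 96.1 elsewhere; the cause was not tested. EIF4A1 passed in neither line (limma adjusted p = 0.19 and 0.38). Its transcript is 88.3% identical to that of TIF4A-2 over the aligned part, so reads may be shared.

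TIF4A-2 was at 69.0, 73.0 and 74.3 FPKM in WT, 58.9 and 56.3 in line 5 and 67.4, 78.8 and 73.7 in line 12. It fell in line 5 (-0.32 ± 0.07, limma adjusted p = 0.01; 0.0627 without line 5 replicate 2), and the line 12 difference was 0.02. TIF4A-3, the least abundant helicase gene, was at 6.67, 7.60 and 7.25 in WT, 5.04 and 5.18 in line 5 and 5.57, 5.01 and 5.28 in line 12. All RNAi libraries were below all WT libraries, with differences of -0.42 ± 0.08 (limma adjusted p = 0.004) and -0.38 ± 0.07 (limma adjusted p = 0.0027); the line 12 call was lost without the libraries above 2% ribosomal RNA (limma adjusted p = 0.0862). EIF4A3, an eIF4A-III homologue that in animals belongs to the exon junction complex, had means of 75.5, 75.8 and 72.9 FPKM in WT, line 5 and line 12 and passed in neither line.

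**Figure D3:**
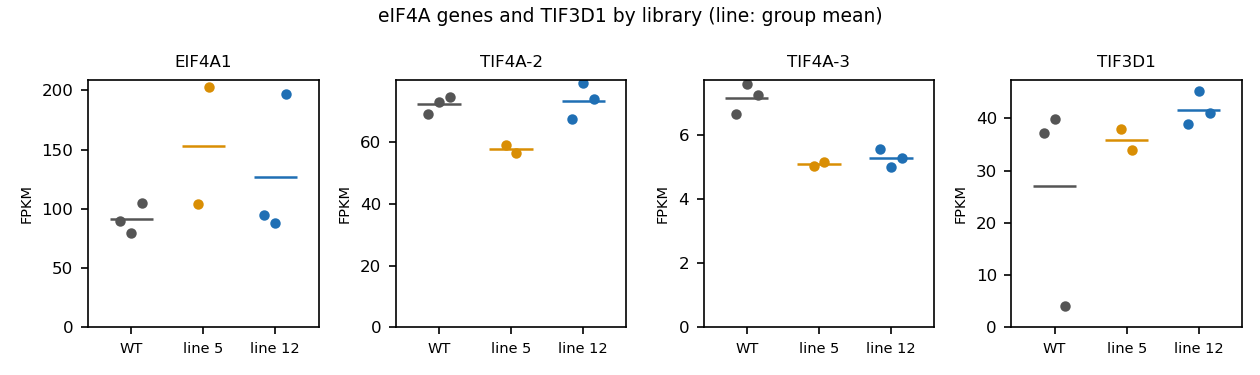
FPKM of the 3 eIF4A genes and of TIF3D1 in each library, with group means as lines. EIF4A1 stands at 203 and 197 FPKM in 1 library of each RNAi line, and TIF3D1 at 4.13 FPKM in 1 WT library.

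The most abundant eIF4B gene fell. AT4G38710, matched to eIF4B3, a cofactor of the helicase, was at 53.1, 56.4 and 57.5 FPKM in WT, 39.3 and 38.0 in line 5 and 39.2, 41.8 and 39.8 in line 12. With no overlap between RNAi and WT, its differences were -0.51 ± 0.06 (limma adjusted p = 0.00032) and -0.46 ± 0.05 (limma adjusted p = 0.00022). EIF4B1 rose in line 12 (0.26 ± 0.05, limma adjusted p = 0.0043; 0.0568 without the libraries above 2% ribosomal RNA) and not past the threshold in line 5 (0.16, limma adjusted p = 0.066), and EIF4B2 passed in neither. The eIF4B genes summed to 83.9 ± 1.53 FPKM in WT, to 68.3 ± 1.47 in line 5 and to 71.1 ± 2.13 in line 12, and AT4G38710 made up 66.3% of it in WT and 56.6% in each line.

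Of the pair of genes for eIF1A, which helps the small subunit scan the messenger RNA, AT5G35680 fell in both lines. It stood at 78.7, 80.3 and 78.8 FPKM in WT, 60.4 and 59.3 in line 5 and 62.1, 67.5 and 58.0 in line 12, with no overlap. The differences were -0.40 ± 0.07 (limma adjusted p = 0.0023) and -0.34 ± 0.06 (limma adjusted p = 0.0021). It shares 139 bases with an opposite-strand gene, AT5G35670, that stood at 0.964 to 2.54 FPKM. AT2G04520 was at 83.0, 86.6 and 87.3 in WT, 77.4 and 67.1 in line 5 and 71.0, 85.8 and 78.4 in line 12, where the groups overlapped, and its differences of -0.25 and -0.13 did not pass (limma adjusted p = 0.061 and 0.21; line 5 passed at 0.04 without line 12 replicate 1 and at 0.0416 without its replicate 2).

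Of the main genes for eIF2, the carrier of initiator tRNA, EIF2B rose and AT2G40290 fell in line 12, and no main gene passed in line 5. EIF2B, the beta subunit (not the exchange factor of that name), was at 42.7, 49.4 and 52.5 FPKM in WT, 66.1 and 48.5 in line 5 and 62.1, 62.9 and 66.1 in line 12. It rose in line 12 (0.40 ± 0.12, limma adjusted p = 0.022). That call was lost without WT replicate 1 (limma adjusted p = 0.0746), line 12 replicate 3 (0.0647) or the libraries above 2% ribosomal RNA. In line 5, EIF2B passed without line 5 replicate 2 (0.45, limma adjusted p = 0.0246). AT2G40290, an alpha subunit homologue, fell in line 12 (-0.33 ± 0.09, limma adjusted p = 0.012) and missed the threshold in line 5 (-0.23, limma adjusted p = 0.09; 0.0446 without line 12 replicate 2). It shares 118 bases on the same strand with FER4, which stood at 17.5 to 21.3 FPKM in WT and 34.2 to 37.9 in the RNAi libraries. EIF2A (the other alpha subunit) and EIF2_GAMMA passed in neither line, with means of 13.1 to 13.4 and 52.7 to 57.1 FPKM.

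Of the low-level copies of eIF2 subunits, AT2G18720 rose in both lines and AT5G01940 in line 12. AT2G18720, a gamma-like copy, was at 0.196, 0.198 and 0.027 FPKM in WT, 1.65 and 0.858 in line 5 and 1.75, 2.73 and 2.84 in line 12, which is 15, 16 and 2 implied fragments against 60 to 198. All RNAi libraries were above all WT libraries. The log2(FPKM + 1) difference was 0.96 ± 0.21 (limma adjusted p = 0.007; 0.0604 without line 5 replicate 1) and 1.58 ± 0.18 (limma adjusted p = 0.00025). The gene reached 1 FPKM only in RNAi libraries, so the filter itself favoured a difference; without the filter the adjusted p-values were 0.0086 and 0.000358.

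AT3G07920, a beta-like copy that did not pass the filter, had 0, 3 and 0 implied fragments in WT, 25 and 8 in line 5 and 36, 28 and 46 in line 12. With no filter it was higher in line 5 (0.47 ± 0.15, limma adjusted p = 0.0459) and line 12 (0.92 ± 0.13, limma adjusted p = 0.00113). AT5G01940, also beta-like, was at 1.81, 1.09 and 1.30 FPKM in WT, 2.21 and 2.04 in line 5 and 2.89, 2.29 and 2.51 in line 12. It rose in line 12 (0.58 ± 0.13, limma adjusted p = 0.0063; 0.0519 without the libraries above 2% ribosomal RNA) and missed the threshold in line 5 (0.39, limma adjusted p = 0.06; 0.0213 without WT replicate 1). AT4G18330, gamma-like, had at most 11 implied fragments in any library. In WT, EIF2_GAMMA held 99.7% of the summed gamma level and EIF2B 97.1% of the summed beta level.

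AT1G73180 and AT1G71350, matched to eIF2A and eIF2D, which can deliver tRNA without eIF2 in animals, were single genes. AT1G73180 was at 13.5, 14.8 and 14.5 FPKM in WT, 18.0 and 16.3 in line 5 and 19.3, 20.2 and 18.0 in line 12, with no overlap. It rose by 0.25 ± 0.08 (limma adjusted p = 0.03) and 0.40 ± 0.07 (limma adjusted p = 0.0016). The line 5 call was lost without WT replicate 1 (limma adjusted p = 0.0874) or WT replicate 3 (0.0521), under median centring and with the replicate number as a block. It was also lost without line 5 replicate 1 or the libraries above 2% ribosomal RNA, fits that left 1 library in line 5. AT1G71350 stood at 10.99, 10.95 and 10.99 in WT, at 13.6 and 12.2 in line 5 and at 11.3, 11.8 and 11.1 in line 12, and rose in line 5 (0.22 ± 0.07, limma adjusted p = 0.03). That call was lost without any single WT library, under median centring, with the replicate number as a block and in a fit of WT and line 5 alone. It was also lost without line 5 replicate 1, a fit that left 1 library in line 5.

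eIF3, the scaffold of the small-subunit complex, was represented by 21 genes for 12 subunits, and its subunits kept similar levels. The summed level per subunit ran from 50.2 FPKM (subunit F) to 88.1 (subunit C) in WT, from 49.1 (F) to 92.2 (M) in line 5 and from 48.4 (F) to 84.6 (D) in line 12. The 21 genes together stood at 826 ± 20.3, 881 ± 47.6 and 876 ± 43.6 FPKM. Of 19 tested, 3 rose and 0 fell in line 5, and 6 rose and 1 fell in line 12, where the shares of all tested genes that rose and fell were 22.2% and 22.3% in line 5 and 28.3% and 27.7% in line 12. Median log2 differences of the tested eIF3 genes were 0.10 and 0.06. TIF3C1, the most abundant, was at 83.0, 88.6 and 92.4 FPKM in WT, 84.2 and 76.4 in line 5 and 78.5, 89.7 and 81.9 in line 12, and passed in neither.

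**Figure D4:**
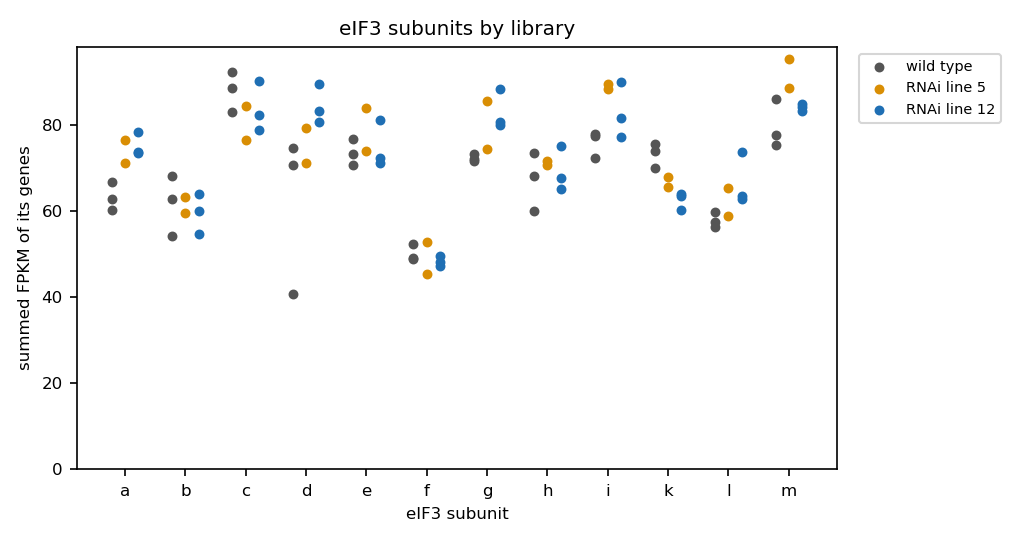
Summed FPKM of the genes of each eIF3 subunit, 1 point per library. The subunits lie within about the same band in all groups, except subunit D in WT replicate 3, where TIF3D1 was at 4.13 FPKM.

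TIF3A1, the large core subunit, rose by 0.22 ± 0.06 in line 5 (limma adjusted p = 0.026) and 0.25 ± 0.06 in line 12 (limma adjusted p = 0.0077). Its line 5 call was lost without WT replicate 1 (0.0772), WT replicate 2 (0.0668) or line 5 replicate 1 (limma adjusted p = 0.165), and its line 12 call without the libraries above 2% ribosomal RNA (0.104). AT5G43930, matched to subunit I but also described only as a WD-40 repeat protein, was at 8.64, 8.74 and 8.05 FPKM in WT, 11.8 and 10.4 in line 5 and 11.9, 10.4 and 9.81 in line 12, above WT throughout. It rose by 0.35 ± 0.09 (limma adjusted p = 0.019) and 0.30 ± 0.08 (limma adjusted p = 0.017); both calls were lost without WT replicate 3 (limma adjusted p = 0.0517 and 0.056) and the first without line 5 replicate 1 (0.134). AT2G46290, a low-level second gene for subunit I, is 88.9% identical to the main one, TIF3I1, over the aligned transcript, so reads may be shared. It was at 3.62, 3.75 and 3.89 in WT, 4.99 and 4.36 in line 5 and 5.11, 5.85 and 5.91 in line 12. It rose in line 12 (0.48 ± 0.08, limma adjusted p = 0.0017; 0.0538 without the libraries above 2% ribosomal RNA), with 0.25 in line 5 (limma adjusted p = 0.053; 0.0457 without line 12 replicate 1).

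The eIF3 member that fell in line 12 was TIF3K1, subunit K (-0.23 ± 0.05, limma adjusted p = 0.0064). The rest of the eIF3 genes called in line 12 were AT5G44320 (subunit D, 0.29), EIF3G1 (0.21) and AT5G25757 (subunit L, 0.22, 97.2% identical to AT5G25754, so its reads may be shared), and AT3G02200 (subunit M) rose in line 5 by 0.28. The call of EIF3G1 was lost without WT replicate 1, WT replicate 2 or line 12 replicate 2 (limma adjusted p = 0.0549 to 0.0688), that of AT5G25757 without any 1 WT library, either line 5 library or line 12 replicate 2 (0.0548 to 0.131), and that of AT3G02200 without WT replicate 1, WT replicate 2 or line 5 replicate 1 (0.0596 to 0.137). In line 5, AT5G44320 passed without line 5 replicate 2 (0.0489), as did EIF3G1 (0.0491), and AT3G02200 passed in line 12 without WT replicate 3 (0.0172). Without the libraries above 2% ribosomal RNA the line 12 calls of TIF3K1 (limma adjusted p = 0.112) and AT5G44320 (0.0629) were lost.

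TIF3C2, a second subunit C gene that did not pass the filter, had 5, 2 and 4 implied fragments in WT, 26 and 14 in line 5 and 64, 69 and 55 in line 12, and passed without the filter in line 5 (0.20 ± 0.06, limma adjusted p = 0.0422) and line 12 (0.61 ± 0.05, limma adjusted p = 0.000126). TIF3D1 was at 37.2, 39.9 and 4.13 FPKM in WT, 37.9 and 33.8 in line 5 and 38.8, 45.3 and 40.9 in line 12. WT replicate 3 alone set its fitted differences of 0.88 and 1.09, which did not pass (limma adjusted p = 0.4 and 0.23). Without that library they were -0.10 and 0.11, while the paralogue AT5G44320 stood at 33.7, 34.9 and 36.5 FPKM in the WT libraries.

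The eIF5 genes, which make eIF2 hydrolyse its GTP at the start codon, were higher in line 12. AT1G36730 was at 86.5, 92.7 and 93.3 FPKM in WT, 99.1 and 86.5 in line 5 and 103, 117 and 116 in line 12. It rose in line 12 (0.30 ± 0.07, limma adjusted p = 0.0098; 0.126 without the libraries above 2% ribosomal RNA) and stood 0.03 from WT in line 5. AT1G77840 was at 22.0, 22.9 and 23.2 in WT, 25.1 and 23.0 in line 5 and 27.5, 35.0 and 33.2 in line 12. Its rise in line 12 was 0.47 ± 0.09 (limma adjusted p = 0.0031; 0.052 without those libraries), against 0.08 in line 5.

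All 4 tested eIF5B genes rose in line 12 and 2 of them in line 5, where 28.3% and 22.2% of all tested genes rose. AT1G76810, the most abundant gene for this subunit-joining GTPase, was at 30.0, 33.1 and 33.0 FPKM in WT, 45.3 and 45.0 in line 5 and 45.6, 48.0 and 46.7 in line 12. Both lines stood clear of WT and close to each other, with differences of 0.49 ± 0.06 (limma adjusted p = 0.00051) and 0.53 ± 0.05 (limma adjusted p = 0.00012). The neighbouring AT1G76820, which the reference lists as a non-translating coding sequence, was at 2.93, 3.29 and 3.01 in WT, 4.15 and 4.02 in line 5 and 4.00, 4.58 and 4.55 in line 12. It rose by 0.32 ± 0.09 (limma adjusted p = 0.02) and 0.40 ± 0.08 (limma adjusted p = 0.0033); the first call was lost without WT replicate 1 (0.0596), line 5 replicate 1 (0.103) or line 5 replicate 2 (limma adjusted p = 0.0655), and both without the libraries above 2% ribosomal RNA (0.0862 and 0.114). It is 88.9% identical to AT1G76810 and 93.7% to AT1G76720 over the aligned transcripts, so reads may be shared among the 3. The line 12 rises of AT1G76720 (0.28) and AT1G21160 (0.25) had limma adjusted p of 0.046 and 0.022, and were lost in several fits that left out 1 library (limma adjusted p of 0.0754 to 0.135 and 0.0508 to 0.073): for both, without WT replicate 1, WT replicate 2 or line 12 replicate 3. The first was also lost without WT replicate 3 or line 12 replicate 2, and the second without line 12 replicate 1. The eIF5B genes summed to 47.1 ± 2.14 FPKM in WT, to 62.5 ± 0.412 in line 5 and to 65.9 ± 1.78 in line 12. AT2G27700, the untested member of this group, had 2 implied fragments in 1 library and 0 elsewhere.

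eIF6 showed the largest rise in line 12 among the initiation factor genes above 10 FPKM in WT. EIF6-2, whose product binds the free large subunit, was at 61.9, 61.2 and 65.7 FPKM in WT, 114 and 78.1 in line 5 and 136, 202 and 175 in line 12. Line 12 stood highest, line 5 between, and no libraries of these 3 groups overlapped. It rose by 1.41 ± 0.17 in line 12 (limma adjusted p = 0.00031) and by 0.58 ± 0.19 in line 5 (limma adjusted p = 0.041). The line 5 call was lost when any 1 WT library, line 5 replicate 1 or line 12 replicate 3 was left out (limma adjusted p = 0.0578 to 0.283), under median centring (0.0523) and with no filter (0.0575).

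EIF6-1, its low-level paralogue, was at 0.216, 0.0819 and 0 FPKM in WT, 1.06 and 0.412 in line 5 and 0.776, 1.57 and 1.36 in line 12, or 10, 4 and 0 implied fragments against 18 to 68. It too reached 1 FPKM only in RNAi libraries. The log2(FPKM + 1) difference was 0.64 ± 0.22 in line 5 (limma adjusted p = 0.048) and 1.01 ± 0.20 in line 12 (limma adjusted p = 0.0033). The line 5 call was lost without any 1 WT library, line 5 replicate 1 or line 12 replicate 3 (limma adjusted p = 0.0637 to 0.307), and under median centring (0.0597), rescaling without ribosomal RNA and organelle genes (0.0509) or a fit of WT and line 5 alone (0.0513).

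The eIF5A genes diverged. ELF5A-2 was at 720.0, 705 and 754 FPKM in WT, 675 and 639 in line 5 and 630.2, 665 and 628 in line 12, all RNAi libraries below all WT libraries. Its fall passed in line 12 (-0.18 ± 0.06, limma adjusted p = 0.024) and not in line 5 (-0.14, limma adjusted p = 0.092). The line 12 call was lost without WT replicate 1, WT replicate 3, line 12 replicate 1 or line 12 replicate 3 (limma adjusted p = 0.0596 to 0.0755). It was also lost under rescaling without ribosomal RNA and organelle genes, with no filter, with the replicate number as a block and without the libraries above 2% ribosomal RNA. ELF5A-1, at less than 1% of the WT family sum, was at 5.76, 6.18 and 4.52 in WT, 5.75 and 5.67 in line 5 and 9.97, 7.39 and 9.68 in line 12. It rose in line 12 (0.62 ± 0.13, limma adjusted p = 0.0048), with 0.06 (95% interval -0.29 to 0.40) in line 5. ELF5A-3, at means of 46.0, 48.7 and 53.4 FPKM, passed in neither, though in line 12 it did without line 12 replicate 1 (limma adjusted p = 0.0403).

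**Figure D5:**
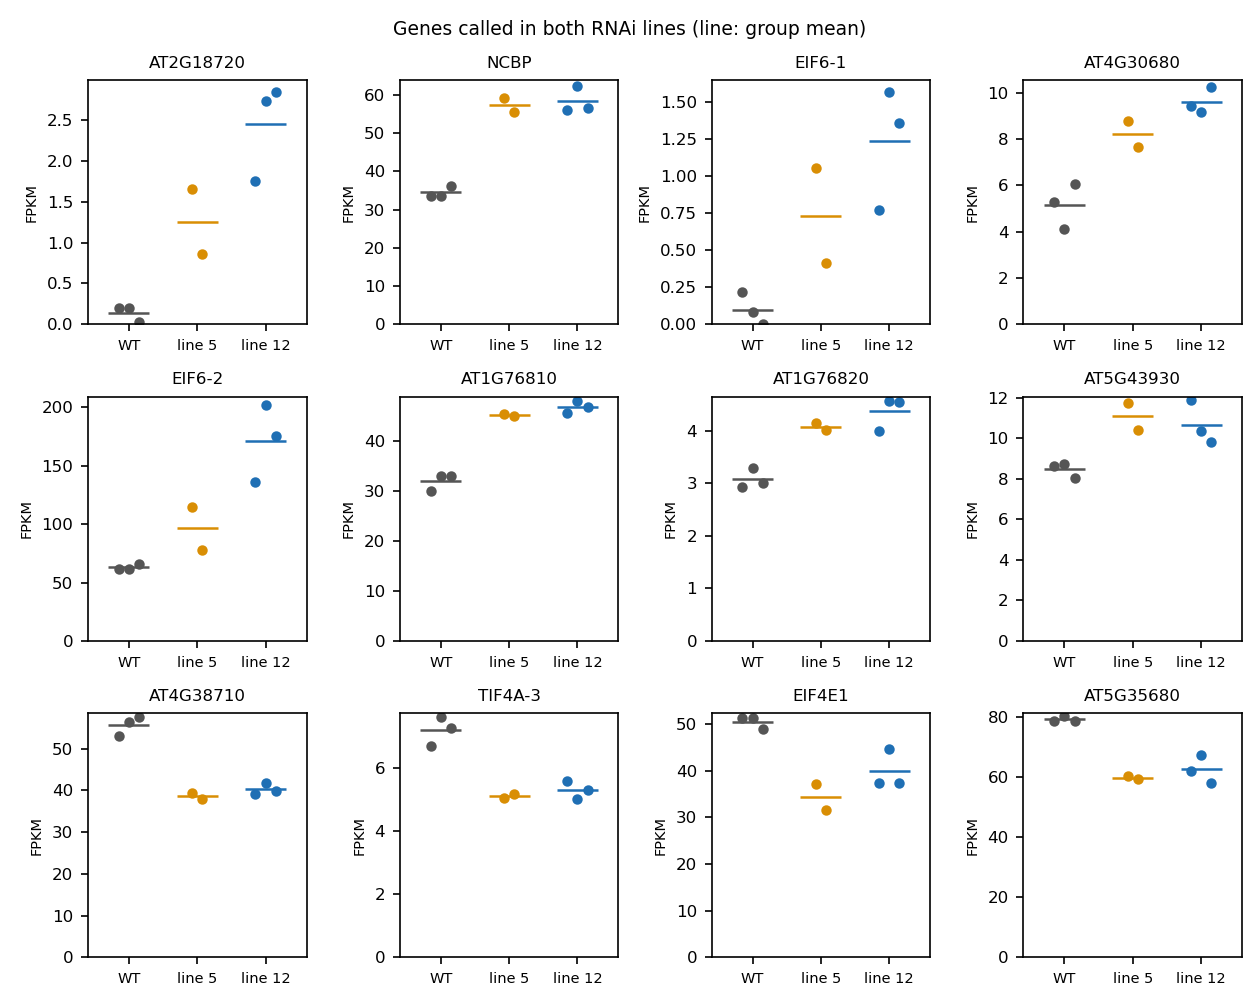
FPKM by library for the 12 initiation factor genes that passed against WT in both RNAi lines with no overlap of libraries, taking at most 8 higher; lines are group means. Of these, 8 lie above WT and 4 below.

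Between the lines, 6 members passed (limma adjusted p under 0.05), 10.7% where 19.0% of all tested genes passed. All 6 were higher in line 12, and 0 lower, where 9.07% of all genes were higher and 9.93% lower. They were EIF6-2 (0.83 ± 0.19), ELF5A-1 (0.57 ± 0.15), AT1G77840 (0.39 ± 0.10), TIF4A-2 (0.34 ± 0.07), EIF(ISO)4G2 (0.26 ± 0.08) and EIF4G (0.20 ± 0.06), with limma adjusted p of 0.018 to 0.049. EIF(ISO)4G2, the minor isoform scaffold, was at 16.0, 16.5 and 16.7 FPKM in WT, 15.8 and 15.1 in line 5 and 17.9, 20.8 and 17.9 in line 12. Against WT its line 12 difference of 0.19 missed the threshold (limma adjusted p = 0.0501), and it passed without line 12 replicate 1 or replicate 3. The count of 6 fell to 0 without line 12 replicate 3, to 2 without WT replicate 1 or line 12 replicate 2, and to 3 without WT replicate 2. Over all tested genes the count fell from 3685 to 2298, 3024, 2925 and 3037 in these fits, in that order. Without either line 5 library, or without the libraries above 2% ribosomal RNA, line 5 held 1 library. Fewer members and fewer of all tested genes passed in those fits too. NCBP, AT4G38710, AT5G35680 and AT1G76810 differed between the lines by 0.03 (95% interval -0.14 to 0.19), 0.06 (-0.08 to 0.19), 0.06 (-0.09 to 0.22) and 0.05 (-0.09 to 0.19).

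For comparison, 17 other genes that act with initiation factors were read from the same fit. They were poly(A)-binding proteins, the nuclear cap-binding complex, the GCN2 kinase and its partners, TCTP1, CERES (AT4G23840), and homologues of MCT1 and DENR. Of 12 tested, 2 rose and 2 fell in line 5, and 2 rose and 4 fell in line 12, against 44.6% and 56.0% of all tested genes called in either direction in these lines. ILA, the GCN1 homologue that activates GCN2, fell by 0.25 and 0.37 (limma adjusted p = 0.023 and 0.0018). GCN2, which phosphorylates eIF2 alpha, fell by 0.20 and 0.23 (limma adjusted p = 0.031 and 0.008). AT1G09150, the MCT1 homologue, rose by 0.27 and 0.43 (limma adjusted p = 0.021 and 0.00094). AT4G23840 rose by 0.38 and 0.22 (limma adjusted p = 0.005 and 0.026).

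Among 16 elongation and termination factors, 2 rose and 4 fell in line 5, and 3 rose and 5 fell in line 12, beside the same 44.6% and 56.0% of all tested genes. One of the 4 was the eEF2 gene LOS1 (-1.39 ± 0.47, limma adjusted p = 0.043), whose WT libraries were uneven. It was at 353, 112 and 392 FPKM in WT, 92.1 and 97.2 in line 5 and 293, 324 and 294 in line 12. ERF1-1, a release factor, was at 33.9 to 34.0 FPKM in WT, 69.7 and 49.4 in line 5 and 73.3, 100.4 and 91.0 in line 12, and rose by 0.77 ± 0.16 (limma adjusted p = 0.0065) and 1.34 ± 0.15 (limma adjusted p = 0.00017). AT1G07920, an eEF1A gene, fell by 0.86 and 0.88 (limma adjusted p = 3.3e-05 and 1.2e-05), and AT5G12110, an eEF1B subunit, by 0.98 and 1.50 (limma adjusted p = 0.00017 and 9.7e-06). The eEF1A genes differed: AT1G07930 changed by -0.74 and -0.84 (limma adjusted p = 0.00011 and 2.3e-05). The most abundant, AT5G60390, changed by -0.12 and -0.20 (limma adjusted p = 0.27 and 0.042), and AT1G07940 passed in neither line. The median log2 difference of these 16 genes was 0.02 in line 5 and 0.11 in line 12, that of the 12 partners 0.03 and 0.04, and that of the 56 initiation factor genes 0.09 and 0.13, against -0.01 and -0.00 over all tested genes. The initiation factor median in line 5 was 0.03 without line 5 replicate 1 and 0.13 without its replicate 2, and that in line 12 was 0.06 without line 12 replicate 2. Median centring gave 0.04 and 0.08, against -0.05 over all genes in each line.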

How the data were processed

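The authors deposited 1 table of values per gene and library. Its header names no unit, and FPKM was inferred for the deposited columns from their values: multiplied by gene length, 85.98% to 87.41% of low values were whole multiples of 1 step per library (tolerance 0.01 fragments), which gave the implied fragments. Per the submitters' processing notes, HISAT2 and StringTie were used with TAIR10, and no versions are listed. No source used here states how fragments were counted, or whether by strand. Libraries were made from 1.5 µg of total RNA with a TruSeq kit, per the labels' protocols.

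The 19395 genes that reached 1 FPKM in 2 or more libraries were fitted together on the log2(FPKM + 1) scale by limma 3.58.1 under R 4.3.3, with trended variance and 3 groups over 8 libraries, and p-values were adjusted over all of them by Benjamini-Hochberg (threshold 0.05). No counts were analysed, so a count test was not used. Simulated data with 200 changed genes were used to test the fit. Other tools were Python 3.11.15, pandas 2.3.3, numpy 2.4.6, matplotlib 3.10.9 and BLAST 2.17.0 (transcript identity, E-value at most 1e-10). All 62 genes had the same coordinates in the RefSeq TAIR10.1 annotation, from which promoters were read; 20 overlap another gene.

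Values per library are given for up to 8 higher and 8 lower members called in both lines without overlap, up to 6 called between lines, up to 4 called in 1 line and the most abundant of each factor. TIF3D1 and low-level copies were added after their values were seen. Members and lists were chosen with earlier results of these data known. Alternatives were 2 other scalings, 2 other filters, 0.1 as the pseudocount, a block for replicate number, fitting only the groups compared, and leaving out single libraries or those above 2% ribosomal RNA.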

Additional observations from a re-analysis of the deposited data

Results flagged for a closer look

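The difference between the RNAi lines itself passed the test (limma, adjusted p under 0.05) for 6 initiation factor genes. On the log2(FPKM + 1) scale the excess in line 12 over line 5 was 0.83 for EIF6-2, 0.57 for ELF5A-1, 0.39 for AT1G77840, 0.34 for TIF4A-2, 0.26 for EIF(ISO)4G2 and 0.20 for EIF4G. None of the 6 passed when the fit held only the 5 RNAi libraries or with the replicate number as a block. Over all tested genes, 2460 and 1539 passed in those fits, against 3685 in the main fit. Leaving out the 3 libraries above 2% ribosomal RNA left 1 library in each line, and fewer members and fewer genes overall then passed.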

How the results depend on the processing

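With the replicate number as a block, the count of members called in line 5 was 11 (5 higher) and between the lines 0 (0 higher). Over all tested genes the counts were 6354 and 1539, against 8645 and 3685 in the main fit. Same-numbered libraries had deviations from their group means correlated by -0.298 to 0.163. With 2 or 3 libraries a group, deviations within a group are tied to each other. These correlations therefore cannot decide whether the numbers pair the samples. The line 5 calls of EIF6-2 (limma adjusted p = 0.0981) and EIF6-1 (0.13) were among those lost under the block. Median centring left 7 members called higher in line 5, beside 3774 of all tested genes (4311 in the main fit). Without the libraries above 2% ribosomal RNA, 14 were called in line 12 (9 higher) and 0 between the lines (0 higher), and the fit on only the groups compared also gave 0 between the lines (0 higher). Leaving out 1 library at a time, the members called ranged from 8 to 21 in line 5 (2 to 14 higher, 5 to 8 lower), 23 to 29 in line 12 (17 to 23 higher, 6 to 7 lower), 20 to 28 for the mean of the lines (14 to 21 higher, 6 to 10 lower) and 0 to 6 between the lines (0 to 6 higher, 0 to 0 lower). The lowest line 5 counts came without line 5 replicate 1 (8, with 2 higher), and 6 were higher without WT replicate 1, and 7 without WT replicate 2 or 3. Over the named genes, 1280 gene-level values stayed on the same side of the threshold, 141 lost the call, 26 gained it, and 0 called values changed sign. Among the 1280 were 29 values that were called in neither setting and changed sign. The calls of NCBP, EIF4E1, AT4G38710, AT5G35680 and AT1G76810 against WT held in both lines in every alternative run. Leaving out 1 library at a time also lowered the counts over all tested genes, except in line 5 without line 12 replicate 2. The cause of these shifts was not tested. With 2 or 3 libraries a group, small differences could not be told from the spread, and members below 1 FPKM rest on few fragments.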
